A study of Bos taurus with 3 samples.

Results

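Desmosome genes were followed in single cells of the rumen of newborn calves. The 9 genes, DSG2, DSG3, DSC2, DSC3, JUP, PKP1, PKP3, DSP and PERP, were taken by their symbols from the 27270 genes of the count matrices, and each symbol matched 1 gene. In the kept cells, their UMIs (unique molecular identifiers, which count captured RNA molecules) ranged from 969 for PKP3 to 253154 for PERP. The cells came from 3 newborn Holstein calves, sampled 1 day after birth, with 1 library per calf and no pooling of animals. Rumen tissue freed of its outer muscle was dissociated with EDTA, trypsin and a mix of collagenases, dispase, hyaluronidase and DNase, and captured with a droplet kit that reads the 3′ end of transcripts. Adult animals of the same study were not analysed here, so all comparisons are between cell types of the same calves. The p-values rest on how far differences between cell types vary over 3 calves, since the fits take out each calf's own level. This spread was estimated over all classes of a fit.

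Desmosomes are spot-like junctions that rivet neighbouring epithelial cells to each other and anchor their keratin filaments. In the cleft between the cells, the cadherins of the desmoglein (DSG) and desmocollin (DSC) families bind to each other, and their tails hold plakoglobin (JUP) and the plakophilins (PKP), which in turn bind desmoplakin (DSP), the link to keratin. In stratified epithelia such as the rumen lining and the epidermis, the desmosomal cadherins are known to change as cells leave the basal layer, with some family members used near the basement membrane and others above it.

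The 3 libraries held 82263092 to 106145091 UMIs in 7529 to 12043 barcodes. Barcodes with 500 to 4000 genes that passed the other limits left 24042 cells, of which 21125 were epithelial, 1322 endothelial, 783 fibroblasts and 811 immune cells. The libraries shared 21 to 37 barcodes pairwise, at most 0.385% of a library. Each class carried its defining markers: the summed level of the 7 endothelial markers was 61.6 to 76.5 UMIs per 10000 in endothelial cells and 0.0742 to 0.124 in epithelial cells, that of the 6 fibroblast markers 343 to 394 against 2.84 to 4.11, and that of the 8 immune markers 133 to 160 against 0.0366 to 0.124. Each level below is given per 10000 UMIs after adding up the cells of one kind within a calf, and a level was compared between cells for the same gene, never between different genes.

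The epithelial cells formed 13 clusters, found without the desmosome and other junction genes. Clusters 2, 5 and 10 (4821 cells) were called basal-like from the mean over 9 basal markers, among them KRT5, KRT14, COL17A1 and ITGB4. Clusters 4, 6 and 16 (3317 cells) were called cycling from MKI67, TOP2A and other cell cycle genes. Cluster 9 (883 cells, with 259, 434 and 190 in calves 1, 2 and 3) carried the suprabasal genes KRTDAP, KRT4, KRT6A and S100A8 and was called KRTDAP-high. Of the rest, clusters 8 and 14 (1251 cells) had a median mitochondrial share over 10%, and the remaining 10853 cells also carried basal markers and were given no name. In these unnamed cells the 9 basal markers summed to 165 to 191 over the calves, against 197 to 260 in basal-like cells. The suprabasal markers summed to 1.05 to 5.26 in unnamed and 3.76 to 20.0 in basal-like cells. KRT4 stood at 12.5, 8.11 and 3.31 in clusters 2, 5 and 10 and at 0.911 to 3.37 in unnamed clusters. The basal-like reference thus carried suprabasal RNA and need not be the basal layer alone.

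Calf 3 went against the name of cluster 9. KRTDAP, a secreted product of differentiating keratinocytes, reached 30.0 and 33.3 UMIs per 10000 in the KRTDAP-high cells of calves 1 and 2 but 1.72 in calf 3. It was also lower in the basal-like cells of calf 3, at 0.00453 against 0.128 and 0.162, so cluster 9 exceeded them in all 3 calves. The other markers of cluster 9 stood in calf 3 as well, with KRT4 at 147, 184 and 35.0, S100A8 at 47.3, 95.8 and 35.9, and COL17A1 down at 1.74, 3.22 and 3.70 in calves 1, 2 and 3. Values are therefore given per calf, and each test was repeated without calf 3.

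From basal-like to KRTDAP-high cells, 8 of the 9 desmosome genes rose and DSG2 fell. The largest rise was that of the desmocollin DSC2, followed by PKP1, JUP and DSG3, while PERP and DSC3 rose least. Together the 9 genes made up 20.9, 25.9 and 19.1 UMIs per 10000 in the basal-like cells of calves 1, 2 and 3 and 39.3, 47.9 and 27.9 in their KRTDAP-high cells. Every KRTDAP-high value lay above every basal-like value.

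Among the cadherins, DSG3, the desmoglein that is the target antigen of pemphigus vulgaris, stood at 1.68, 1.67 and 2.04 UMIs per 10000 in the basal-like cells of calves 1, 2 and 3 and at 5.10, 5.22 and 4.12 in KRTDAP-high cells. The groups did not overlap, and the rise was smallest in calf 3. The log2 fold change was 1.54 ± 0.15 (SE, n = 3 calves, edgeR adjusted p = 1.48e-05).

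DSC2, a widely expressed desmocollin, went from 0.106, 0.0601 and 0.0810 to 0.908, 0.864 and 0.726 in calves 1, 2 and 3. This was 8.57, 14.4 and 8.96 times the basal-like level of the same calf. The 3 calves lay close together in KRTDAP-high cells and all stood far above the basal-like range. Its log2 fold change was 3.49 ± 0.23 (SE, n = 3, adjusted p = 9.04e-07).

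DSC3, known as a desmocollin of the lower layers of stratified epithelia, was 0.362, 0.130 and 0.430 in basal-like cells and 0.443, 0.212 and 0.667 in KRTDAP-high cells. Here the groups overlapped, since calf 2 was lowest in both, and the rise showed only within each calf, by 1.22, 1.64 and 1.55 times. The log2 fold change of 0.64 ± 0.15 (SE) passed the test (adjusted p = 0.00632), but its adjusted p was 0.0646 without calf 3.

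DSG2, the desmoglein of simple epithelia and of the basal layer, was the only member that fell. Its levels of 0.390, 0.302 and 0.309 in basal-like cells of calves 1, 2 and 3 stood against 0.149, 0.0581 and 0.164 in KRTDAP-high cells, which rest on 54, 29 and 36 UMIs. All 3 KRTDAP-high values lay under the lowest basal-like value. The log2 fold change was -1.46 ± 0.22 (SE, n = 3, adjusted p = 0.00035), a basal-like level of 2.63, 5.19 and 1.88 times that of KRTDAP-high cells in calves 1, 2 and 3.

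Of the armadillo proteins of the plaque, JUP, which also takes part in adherens junctions, rose from 2.08, 2.68 and 1.19 to 5.29, 7.80 and 3.90 UMIs per 10000. Calf 3 was lowest in both groups and calf 2 highest, yet the KRTDAP-high value of calf 3 exceeded all basal-like values. The ratio within a calf varied little, at 2.54, 2.91 and 3.27, and the log2 fold change was 1.64 ± 0.14 (SE, adjusted p = 6.34e-06).

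PKP1, a plakophilin that clusters desmosomal proteins in suprabasal cells, rose from 0.374, 0.404 and 0.306 to 1.51, 2.21 and 1.25, with no overlap and a log2 fold change of 2.29 ± 0.19 (SE, adjusted p = 4.32e-06). PKP3, a plakophilin found in most epithelia, was sparse, with 109, 100 and 38 UMIs in all basal-like cells and 51, 63 and 23 in KRTDAP-high cells of calves 1, 2 and 3. Its levels of 0.0856, 0.0595 and 0.0215 rose to 0.140, 0.126 and 0.105. The KRTDAP-high values were the higher ones in all calves and lay closer together than the basal-like ones, and the log2 fold change was 1.33 ± 0.26 (SE, adjusted p = 0.00173).

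DSP, the plakin that ties the plaque to keratin, went from 2.45, 1.75 and 3.44 to 5.64, 3.03 and 4.44 in calves 1, 2 and 3. The groups overlapped because the KRTDAP-high value of calf 2 was below the basal-like value of calf 3. The log2 fold change was 0.91 ± 0.15 (SE, adjusted p = 0.000645). PERP, a p53- and p63-regulated tetraspan membrane protein that desmosomes of stratified epithelia need, went from 13.4, 18.8 and 11.3 to 20.1, 28.3 and 12.5. The rise was 1.50 and 1.51 times in calves 1 and 2 and 1.11 times in calf 3, and the groups overlapped. Its log2 fold change was 0.56 ± 0.14 (SE, adjusted p = 0.00868), and without calf 1 the adjusted p was 0.0514.

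**Figure D1:**
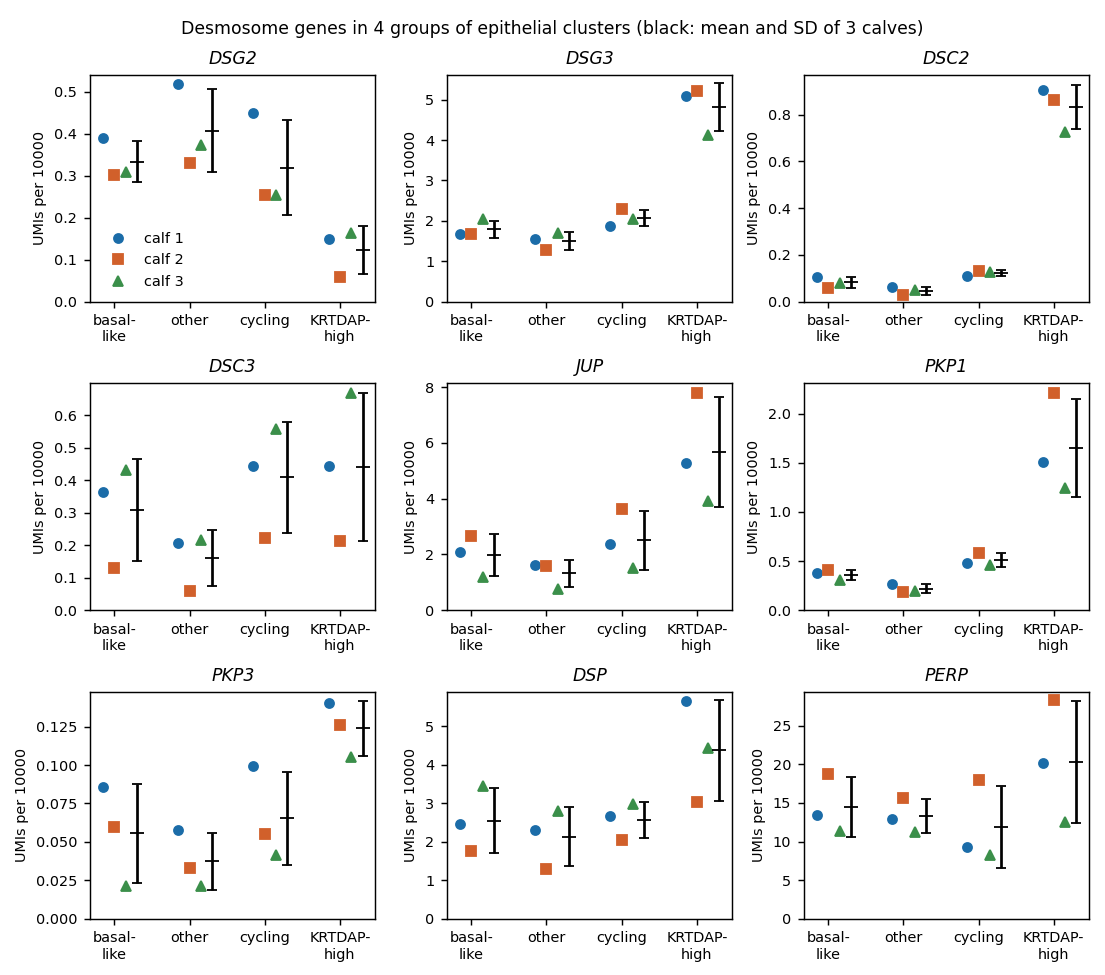
Level of each desmosome gene in UMIs per 10000 (y axis, from 0) in 4 groups of epithelial clusters (x axis), with 1 point per calf and the mean and SD of the 3 calves in black. DSC2 and PKP1 stand far higher in KRTDAP-high cells than elsewhere in every calf, DSG2 is lowest there, and DSC3 and DSP overlap between the groups.

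In this comparison, 9 of 9 desmosome genes passed the test (8 higher, 1 lower), where 39.6% of the 11894 genes tested passed it (18.6% higher and 21.0% lower), so a call alone was common among all genes. The clusters being compared were themselves found from the expression of many of the other genes. The median log2 fold change of the 9 genes was 1.33, against -0.08 over all genes tested. None of the 9 changed direction in 16 other settings. A fit without the calf as a block called 15.4% of all genes tested and 5 of the 9, with DSC3 (adjusted p = 0.452), PKP3 (0.158), JUP (0.0531) and PERP (0.381) not called. Of all calls, 46.9% were higher with TMM scaling and 36.5% with library size alone, a scaling that moved the median of all genes by -0.11.

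The summed markers of endothelial, immune and mural cells were at most 0.304 UMIs per 10000 in both groups, while those of fibroblasts reached 3.18 in basal-like cells. PTPRC, the leukocyte surface marker, had at most 1 UMI in the KRTDAP-high cells of a calf. The 7 endothelial markers summed to 0.0330 to 0.134 UMIs per 10000 in KRTDAP-high cells and 0.0774 to 0.0997 in basal-like cells, and the 8 immune markers to 0.00550 to 0.0731 and 0.0369 to 0.101. Of the 6 fibroblast markers, COL3A1 and LUM were called higher and DCN lower in KRTDAP-high cells. DCN stood at 1.08 and 0.731 UMIs per 10000 in basal-like clusters 2 and 5, where each other fibroblast marker was at most 0.0812. It was called higher in epithelial than in endothelial and immune cells, and lower than in fibroblasts. The fibroblast list summed to 0.176 to 0.886 in KRTDAP-high cells against 1.54 to 3.18 in basal-like cells, and COL3A1 came almost wholly from calf 2 (101 UMIs, against 3 and 4 in calves 1 and 3). The 6 myofibroblast and mural markers summed to 0.0825 to 0.148 in KRTDAP-high and 0.139 to 0.304 in basal-like cells. Whether these UMIs bear on the desmosome genes was not tested.

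To compare the share of cells with a UMI of a gene at equal depth, each cell was thinned at random to 2000 UMIs, which left out 53 KRTDAP-high and 8 basal-like cells with fewer. A DSC2 UMI was then found in 1.41% ± 0.34 (SD, n = 3 calves) of basal-like cells and 14.1% ± 2.45 of KRTDAP-high cells, and without thinning in 7.66% and 50.4%. The shares of PKP1 were 7.07% ± 0.89 and 24.3% ± 8.12, those of DSG3 30.2% ± 2.89 and 59.7% ± 2.63, and those of JUP 32.0% ± 10.0 and 61.3% ± 11.3. DSG2 went the other way, from 6.66% ± 1.18 to 3.05% ± 1.98. PERP was found in nearly every cell of both groups (92.8% ± 4.02 and 92.1% ± 5.78). For DSP the shares were 37.2% ± 11.6 and 52.8% ± 9.76, for DSC3 6.08% ± 3.31 and 9.0% ± 4.65 (lower in KRTDAP-high cells in calf 1, at 7.62% and 6.32%), and for PKP3 0.994% ± 0.46 and 2.13% ± 1.51, so that the SDs of DSP, DSC3 and PKP3 overlap. Without thinning, the mean shares in basal-like and KRTDAP-high cells were 29.0% and 69.6% for PKP1, 78.5% and 93.3% for DSG3, 78.0% and 92.1% for JUP, 27.3% and 12.7% for DSG2, 79.9% and 86.9% for DSP, 24.3% and 35.8% for DSC3, 5.58% and 13.4% for PKP3, and 99.9% and 98.8% for PERP.

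Counted together, a thinned basal-like cell held UMIs of 2.20, 2.08 and 2.16 of the 9 genes in calves 1, 2 and 3, and a KRTDAP-high cell of 3.20, 3.28 and 3.07. At least 3 of the 9 genes were found in 35.3%, 29.6% and 34.8% of basal-like and in 73.5%, 74.5% and 68.5% of KRTDAP-high cells. The 3 calves lay close together in both groups, calf 3 with its low KRTDAP included. For comparison, thinned immune cells, which build no desmosomes, held a mean of 0.571, 0.292 and 0.110 of the genes (median depths before thinning of 4598 UMIs in immune, 9011 in basal-like and 11373 in KRTDAP-high cells), mostly PERP, with 17.1% ± 10.7 of these cells positive. In immune cells the thinned shares were 0.513% for DSC2, 1.59% for PKP1, 5.70% for DSG3 and 6.57% for JUP as means of the calves, of which calf 1 has only 7 such cells. All of these lay below the shares in basal-like cells.

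Other desmosome genes of the same families were read in the same cells. DSG1, the desmoglein of the upper layers, rose with a log2 fold change of 4.81 ± 0.34 (SE, adjusted p = 1.31e-06). It stood at 0.721 and 0.839 UMIs per 10000 in KRTDAP-high cells of calves 1 and 2 but at 0.0411 in calf 3, where it rests on 9 UMIs. Basal-like cells had 0.0455, 0.0179 and 0.00227 in calves 1, 2 and 3. As with KRTDAP, calf 3 was low in both groups, while DSG3 and DSC2 of the same cells were close to the other calves. DSC1, the desmocollin of the upper layers, had only 3, 13 and 3 UMIs in KRTDAP-high cells. PKP2, the plakophilin best known from the heart, and EVPL, a precursor of the cornified envelope, also rose (adjusted p = 0.000435 and 0.00478). PPL and PKP4 were not called (0.22 ± 0.27 and -0.05 ± 0.15, adjusted p = 0.56 and 0.841), and DSG4 and CDSN had too few UMIs to be tested. In all, 4 of the 6 genes tested of this list of 8 passed, all higher, with a median log2 fold change of 1.04.

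Adherens junction genes, whose cadherins bind to actin in place of keratin, moved in both directions. Of 10 genes, 7 rose, 1 fell and 2 were not called, with a median log2 fold change of 0.93. CDH1, or E-cadherin, rose from 0.583, 0.524 and 0.455 to 1.82, 1.92 and 1.10, while CDH3, the P-cadherin of basal cells, fell from 0.385, 0.275 and 0.220 to 0.0825, 0.0421 and 0.0776. The log2 fold changes were 1.72 ± 0.13 and -2.11 ± 0.19 (SE, adjusted p = 2.13e-06 and 7.74e-06). The pair thus moved in opposite directions, as DSG3 and DSG2 did. The nectin NECTIN4 rose most (3.57 ± 0.31), with NECTIN1 (1.56), AFDN (1.12), NECTIN2 (1.00), CTNND1 (0.85) and VCL (0.76) after it. The catenins CTNNA1 and CTNNB1, partners of E-cadherin, were not called (0.22 ± 0.11 and 0.13 ± 0.10, adjusted p = 0.134 and 0.353), whereas JUP, a relative of CTNNB1, rose.

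**Figure D2:**
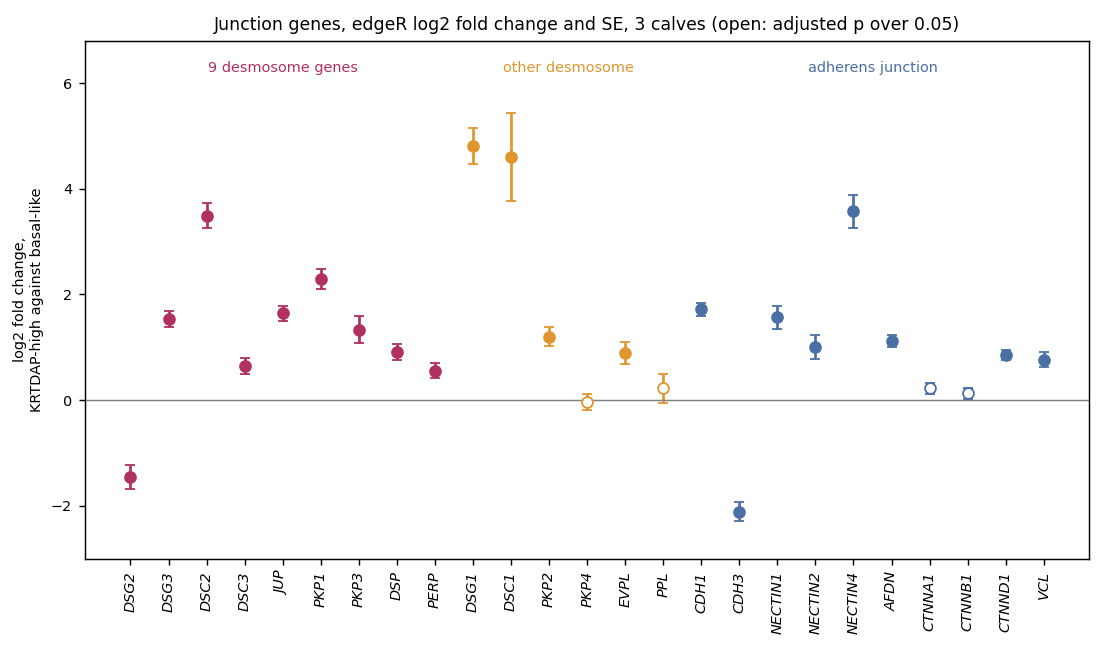
Log2 fold change between KRTDAP-high and basal-like cells with its SE (y axis) for the 9 desmosome genes, 6 other desmosome genes and 10 adherens junction genes (x axis), from edgeR over 3 calves; open points did not pass the test. DSG2 and CDH3 lie below 0, at -1.46 and -2.11, and DSC2, DSG1, DSC1 and NECTIN4 lie above 3.

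Regulators of stratified epithelia and the inhibitor SPINK5 were read in the same cells, with the limit that these genes, unlike the junction genes, could enter the clustering. GRHL3, a grainyhead factor of barrier formation, rose from 0.0298, 0.0149 and 0.00793 to 0.413, 0.457 and 0.242 UMIs per 10000 (log2 fold change 4.60 ± 0.26, SE). ZNF750 (3.51), GRHL1 (2.91), OVOL1 (2.76) and KLF5 (0.50) rose as well. TP63, the master factor of basal cells, and KLF4 were not called (-0.38 and -0.44, adjusted p = 0.0708 and 0.295). SPINK5, which inhibits the kallikreins that cut desmosomal cadherins, stood at 0.0220, 0.0595 and 0.00736 in basal-like cells and at 16.7, 15.2 and 2.81 in KRTDAP-high cells. KLK5, KLK6, KLK7, KLK8 and SPINK6 were too sparse to be tested, so 1 of the 6 genes of this list was tested and passed.

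The levels were also read with epithelial cells grouped by KRTDAP itself, in place of clusters. Cells were split by their KRTDAP UMIs after thinning into those with 0 (19719 cells), 1 to 2 (541 cells) and 3 or more (134 and 210 cells in calves 1 and 2). Calf 3 had 4 cells in the last bin, which were left out, and 27 in the middle one. In both calves with all 3 bins, the level of DSG3, DSC2, PKP1, PKP3, JUP, DSP and PERP was higher and that of DSG2 lower at each step. These steps are described, not tested. JUP went from 2.11 to 3.26 and 5.32 in calf 1 and from 2.36 to 4.17 and 7.93 in calf 2, and in calf 3 from 1.12 to 3.60 over the first step.

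DSG2 went from 0.456 to 0.365 and 0.114 in calf 1 and from 0.304 to 0.210 and 0.0295 in calf 2, where the last value rests on 8 UMIs. DSC3 was higher at each step in calf 2 only, at 0.350, 0.472 and 0.385 in calf 1 and 0.115, 0.125 and 0.162 in calf 2. PERP differed little over the first step (11.7 and 12.3 in calf 1, 17.0 and 18.7 in calf 2) and more over the second, to 22.6 and 31.9. When cells with 3 or more KRTDAP UMIs were tested against those with no KRTDAP and at least 1 COL17A1 UMI, which used calves 1 and 2 alone, the log2 fold change of DSC3 was 0.49 with an adjusted p of 0.171, and the other 8 members were called in the same directions. In that test 27.3% of the 13082 genes were called (12.1% higher and 15.2% lower). Of the 348 cells of all calves with 3 or more KRTDAP UMIs, 322 lay in the KRTDAP-high cluster, so both groupings rest largely on the same cells.

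**Figure D3:**
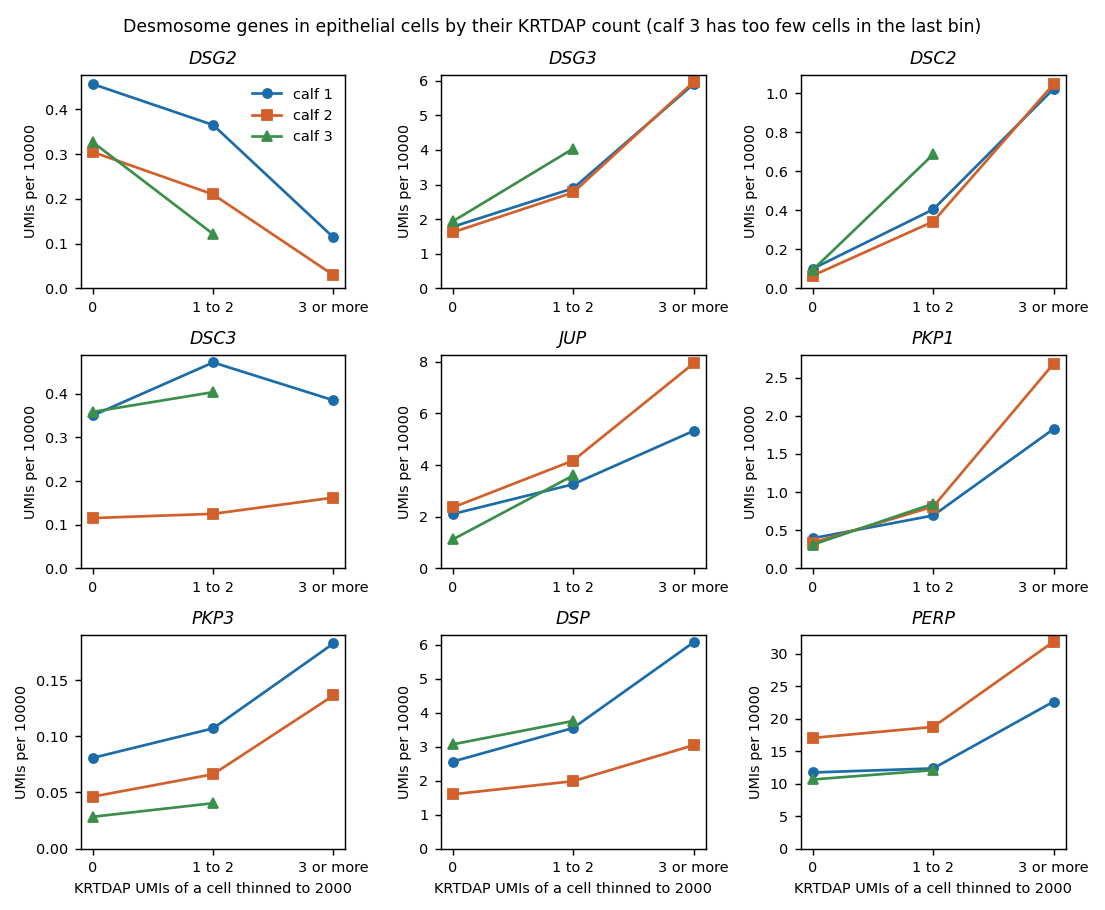
Level of each desmosome gene in UMIs per 10000 (y axis, from 0) in epithelial cells with 0, 1 to 2, or 3 or more KRTDAP UMIs after thinning to 2000 UMIs (x axis), with 1 line per calf. Lines of calves 1 and 2 climb at both steps for 7 genes and descend for DSG2; calf 3 ends at the middle bin because it has 4 cells in the last.

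Across the 13 epithelial clusters, the KRTDAP-high cluster ranked first in all 3 calves for DSG3, DSC2, PKP1, JUP and PERP, in 2 of 3 for DSP and PKP3, and in 1 of 3 for DSC3. It ranked last for DSG2 in 2 of 3 calves. Over the 39 sums of a cluster and calf, JUP followed the sum of the other 8 genes most closely (Pearson r = 0.744 on the log2 scale), then PKP1 (0.661), DSC2 (0.573) and DSG3 (0.51), while DSP (0.00883), DSC3 (-0.03) and PERP (0.196) did not, and DSG2 ran against it (-0.54). These points share libraries, and PERP makes up most UMIs of the sum, so the values describe them only. Without the KRTDAP-high cluster, JUP kept an r of 0.569 and that of DSC2 was 0.0426.

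Differences between calves ran through all clusters and took different directions for different members. JUP was lowest in calf 3 in 13 of 13 clusters and PERP in 12 of 13, and the level of calf 3 was 0.277 to 0.575 times that of calf 2 for JUP and 0.409 to 0.834 times for PERP. DSP and DSC3 had the reverse order: DSP was highest in calf 3 in 12 of 13 clusters and lowest in calf 2 in 12, and DSC3 was lowest in calf 2 in 13 of 13. For DSC3, the level of calf 3 was 1.80 to 11.0 times that of calf 2. The clusters of a calf share 1 animal and 1 library, so these orders are 3 libraries compared once, with no test, and animal and library cannot be told apart.

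**Figure D4:**
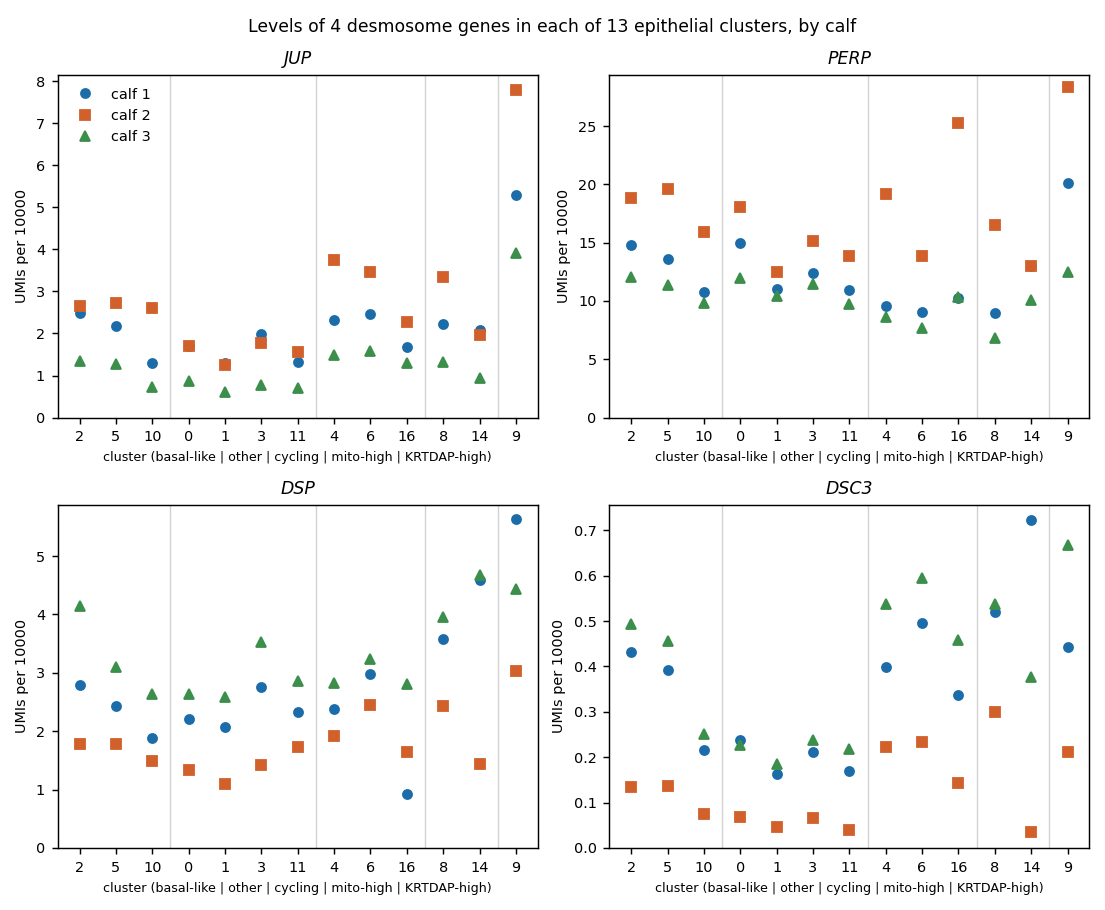
Level in UMIs per 10000 (y axis, from 0) of JUP, PERP, DSP and DSC3 in each of the 13 epithelial clusters (x axis, grouped by kind of cluster), with 1 point per calf. Calf 3 lies lowest for JUP in all 13 clusters, while calf 2 lies lowest for DSC3 in all 13 and for DSP in 12.

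Between cycling and basal-like cells, PERP was the only member called, at 9.32, 18.0 and 8.28 UMIs per 10000 in cycling cells of calves 1, 2 and 3 against 13.4, 18.8 and 11.3 in basal-like cells. The difference was small in calf 2, and the groups overlapped. Its log2 fold change was -0.48 ± 0.14 (SE, adjusted p = 0.0324), with an adjusted p of 0.165 without calf 1 and 0.21 without calf 3.

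The other 8 genes had log2 fold changes between -0.25 ± 0.17 (DSG2) and 0.45 ± 0.23 (DSC2), both SE, and none passed, with DSC3 at 0.32 ± 0.14 (adjusted p = 0.129). So 1 of 9 was called, where 20.9% of the 11894 genes tested were called (11.0% higher and 9.88% lower), and the median log2 fold change was 0.14 against -0.02 over all genes. Of the calls, 52.8% were higher with TMM and 78.0% with library size alone. With the basal-like and the other epithelial clusters pooled as the reference, 4 members passed, all higher in cycling cells (DSC2, DSC3, PKP1 and JUP), where 34.9% of the 11639 genes tested were called and 17.3% were higher. Markers of other cells also differed in the comparison with basal-like cells. Of the 7 suprabasal markers tested, KRT6A, KRTDAP and S100A8 were called higher in cycling cells, as were CLDN5 of 5 endothelial and ACTA2 of 2 mural markers tested. KRTDAP was 5.42, 2.98 and 4.57 times its basal-like level in calves 1, 2 and 3, and the summed level of the suprabasal markers ranged from 11.4 to 21.4 UMIs per 10000 in cycling cells and from 3.76 to 20.0 in basal-like cells. Their part in the result was not tested. Of the other desmosome genes only PPL passed, and it was lower (-0.74 ± 0.23, SE, adjusted p = 0.0433), while edgeR called 0 of the 10 adherens junction genes and 0 of the 8 regulators. At an unadjusted p under 0.05 there were 0 and 4 of these, and DESeq2 called 0 and 1.

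In endothelial cells, JUP was the member with the highest level relative to epithelial cells. DSP stood at 0.0298, 0.0331 and 0.0576 UMIs per 10000 in calves 1, 2 and 3, against 2.75, 1.68 and 3.08 in all epithelial cells, and DSG3 at 0.0893, 0.0909 and 0.0547 against 2.01, 1.85 and 1.96. These are 1.08% to 1.97% and 2.79% to 4.91% of the epithelial level of the same calf. The epithelial keratin KRT15, which endothelial cells should lack, stood at 5.44%, 4.62% and 3.03% in the same endothelial cells, and PERP at 3.42%, 4.89% and 2.98%.

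JUP differed from these. It reached 1.28, 1.13 and 0.524 UMIs per 10000 in endothelial cells, which is 55.9%, 42.3% and 46.0% of the epithelial level of the same calf, and was found in 19.4%, 17.3% and 9.44% of thinned endothelial cells (32.9%, 30.7% and 18.5% without thinning, at a median of 3914.5 UMIs per cell against 7643 in epithelial cells). Both endothelial clusters carried it, at 0.851, 1.14 and 0.362 in cluster 7 and 3.52, 1.07 and 0.889 in cluster 12 (of calf 1 only 14 cells). JUP is known to bind VE-cadherin at endothelial junctions.

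In fibroblasts, JUP stood at 49.0%, 41.4% and 39.4% of the epithelial level in calves 1, 2 and 3. The 22 fibroblasts of calf 1 also held KRT15 at 47.9% and COL17A1 at 54.3% of the epithelial level, and PERP at 39.9% and DSP at 40.8%, so JUP did not stand apart there. In calves 2 and 3 it did, with KRT15 at 8.45% and 5.27%, PERP at 7.75% and 5.84% and DSP at 5.42% and 3.98%. Immune cells had JUP at 8.71%, 12.2% and 3.42%, close to the KRT15 shares of 3.48%, 12.4% and 3.41%, on 28 UMIs in all.

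**Figure D5:**
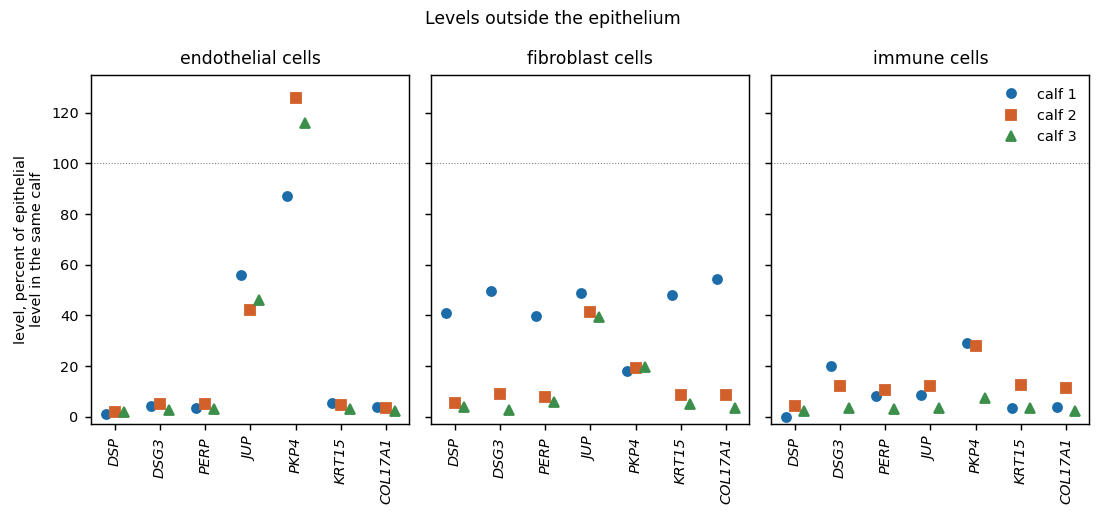
Level in endothelial cells, fibroblasts and immune cells as a percent of the epithelial level of the same calf (y axis, dotted line at 100) for 3 desmosome genes, JUP, its relative PKP4 and the epithelial genes KRT15 and COL17A1 (x axis), with 1 point per calf. JUP lies between 39.4 and 55.9 percent in endothelial cells and fibroblasts of all calves, while KRT15 lies between 3.03 and 8.45 percent in the same cells except at 47.9 in the fibroblasts of calf 1.

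In the tests, PKP3 was too sparse to enter. The other 8 genes were all called higher in epithelial cells than in endothelial cells, fibroblasts and immune cells. Without calf 3, DSC2 and DSC3 did not pass the filter on low counts, and the remaining 6 were called in each of these comparisons. The background was 46.9% of 10296 genes called against endothelial cells (22.1% higher and 24.9% lower in epithelial cells), 38.1% against fibroblasts (19.8% higher and 18.3% lower) and 47.4% against immune cells (22.4% higher and 25.0% lower). The median log2 fold change of the 8 genes was 5.02, 3.76 and 4.19, against -0.03, 0.10 and -0.02 over all genes tested, and the immune value is the same with DSG2 and DSC3 at the lower bounds given below. JUP had the smallest difference to endothelial cells (1.42 ± 0.24, SE, adjusted p = 4.5e-05) and to fibroblasts (1.71 ± 0.27, SE, adjusted p = 3.03e-05), and the next smallest were those of PKP1 (4.71 ± 0.42) and DSC2 (2.83 ± 0.69). Without calf 1, whose fibroblasts held the epithelial RNA given above, the difference of JUP to fibroblasts was 1.75 ± 0.29 (adjusted p = 0.000978) and that of DSP went from 4.18 to 4.90. Against immune cells JUP was at 4.15 ± 0.34, near PERP at 4.13 ± 0.47.

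No UMI of DSG2 or DSC3 was found in the 811 immune cells, and a count of 0 allows 0.37% of them to hold a UMI. Against the level of 3 UMIs over all immune cells, the level in epithelial cells was at least 46.2-fold higher for DSG2 and at least 36.7-fold higher for DSC3. With library size alone in place of TMM, 29.7% in place of 47.0% of all calls against endothelial cells and 26.5% in place of 52.0% of those against fibroblasts were higher in epithelial cells (39.8% against fibroblasts by DESeq2). These scalings moved the median of all genes by up to -0.48, and none turned the direction of a member.

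PKP4, a plakophilin relative found at several kinds of junction, also had a high level outside the epithelium. It reached 87.2%, 126% and 116% of the epithelial level in endothelial cells of calves 1, 2 and 3 (0.595, 0.678 and 0.787 UMIs per 10000), and the difference was not called (log2 fold change 0.18 ± 0.22, SE, adjusted p = 0.542). In fibroblasts it was at 18.3%, 19.3% and 19.5%. EVPL was higher in epithelial cells than in each of the 3 other classes, and the remaining 6 genes of this list were too sparse to be tested. Among adherens junction genes, AFDN, CTNND1 and NECTIN2 were called lower in epithelial than in endothelial cells, and CDH1, CDH3 and NECTIN4 higher.

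By a rule on likeness to the summed desmosome genes over the 39 sums of an epithelial cluster and calf, the 5 nearest of 2067 genes were TMBIM1 (Pearson r = 0.859), TAX1BP3 (0.858), C18H19orf33 (0.854), LAD1 (0.846) and MPZL2 (0.846). LAD1 encodes ladinin and MPZL2 an epithelial adhesion molecule of the immunoglobulin family. Without the KRTDAP-high cluster these values were 0.82, 0.814, 0.809, 0.774 and 0.696 over 36 sums, with the largest drop for MPZL2. PERP makes up most UMIs of the summed genes. Over the same sums, r with the other members was 0.00883 for DSP, -0.03 for DSC3 and -0.54 for DSG2. All these values hold differences between calves as well as between clusters. The sums also share 3 libraries, so these genes are like a sum dominated by PERP and need not be like each member, and no test was made.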

How the data were processed

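The deposited values are raw UMI counts of genes in barcodes, 1 matrix per calf, which the authors made with Cell Ranger 3.1.0 against the ARS-UCD1.2 cattle genome, without normalization. The deposited gene and barcode lists name the rows and columns of these matrices and hold no score or other measure. Barcodes were kept with 500 to 4000 genes, no more than 50000 UMIs and up to 40% of UMIs from 13 mitochondrial protein-coding genes. Doublets were removed by a score against simulated doublets, at 0.8% per 1000 cells, in place of the caller the study used, leaving 4695, 9746 and 9601 cells. Log-normalized counts of 2000 variable genes, without the junction genes, were reduced to principal components, merged with a Harmony implementation written for the purpose, and clustered with leidenalg 0.10.2 (30 dimensions and resolution 0.1, then 50 and 0.8 without immune cells). Clusters were named from marker lists: cycling and KRTDAP-high where the mean log2 marker level relative to the other epithelial clusters was over 1, basal-like over 0, and mitochondria-high where the median mitochondrial share was over 10%.

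Counts were summed per calf and class (at least 10 cells) and tested with edgeR 4.0.16 (TMM, quasi-likelihood F test, calf as a block, filterByExpr) at a Benjamini-Hochberg adjusted p of at most 0.05 over all genes tested; mitochondria-high cells were left out of the fit over epithelial classes. DESeq2 1.42.0 was an alternative. The classes of a calf come from 1 animal, and their deviations from the class means correlated over genes at r = 0.0978 to 0.905 in all 15 pairs. Intervals and limits cover counting error only. The scripts were tested on simulated data. The members and gene lists were chosen with earlier results of these data known. All 9 members were named, as were genes of the other lists past the threshold and the 5 genes most like the summed members. Genes of these lists named as not called, not tested or 0 were added after their values were seen. Named cells are rebuilt here and need not match the study's own clusters. The values of 1 regulator are not reported here.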

Additional observations from a re-analysis of the deposited data

Results flagged for a closer look

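Desmosome genes were also found in barcodes that the limits on gene number had set aside. In barcodes with over 4000 genes (797, 187 and 637 in calves 1, 2 and 3), the 9 genes summed to 20.0, 32.1 and 18.0 UMIs per 10000. In barcodes with under 500 genes (1797, 1119 and 476), they summed to 4.61, 8.74 and 4.57. Both are given because the signal lies in barcodes that no comparison used and exceeds the 3 counts that a count of 0 allows. The order of the calves, with calf 2 highest, was that of the kept epithelial cells, which had 20.7, 25.0 and 18.0.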

How the results depend on the processing

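Without the replicate block by calf, 1829 genes were called between KRTDAP-high and basal-like cells, in place of 4714, with 5 members in place of 9, and 211 between cycling and basal-like cells, in place of 2487, with 0 members in place of 1 (edgeR; 0 at an unadjusted p under 0.05, while DESeq2 with the block called 1). The calls without the block were 15.4% and 1.77% of the 11894 genes tested. The block changed no call of a member against endothelial cells, fibroblasts or immune cells. Leaving out 1 calf gave 3034 to 3497 calls and 8 to 9 members for KRTDAP-high cells (3034 without calf 2), and 560 to 1777 calls and 0 to 1 members for cycling cells (560 without calf 3). These calls were 25.2% to 29.1% and 4.74% to 14.8% of the genes tested. Against endothelial cells, fibroblasts and immune cells, leaving out 1 calf gave 2803 to 4951, 2026 to 4175 and 2268 to 5396 calls, and 6 to 9, 6 to 8 and 6 to 9 members in place of 8, in each case lowest without calf 3, where DSC2 and DSC3 were no longer tested. The shares of genes called were 35.2% to 43.0%, 25.8% to 36.2% and 29.6% to 46.8%. Cycling cells gave 3800 calls and 3 members without Harmony, 3770 and 3 with junction genes kept among the variable genes, and 4060 and 4 with all other clusters in the reference. The calls were 32.4%, 31.5% and 34.9% of all genes tested in turn, against 20.9% in the main analysis. The added members thus came with more calls among all genes. The reference with all other clusters and library size alone were chosen after seeing the data.

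Some members that were not called in cycling cells changed sign there. DSP, at -0.10 in the main analysis, was at 0.0369 without doublet removal, 0.0586 without Harmony, 0.0527 at resolution 0.4, 0.0419 with library size alone and 0.0645 with all other clusters in the reference, and from -0.196 to 0.0121 with 1 calf left out. DSG3, at 0.06, was at -0.11 without doublet removal, -0.0282 without Harmony, -0.0642 at resolution 0.4 and -0.0128 at resolution 1.2, and from -0.0645 to 0.15 with 1 calf left out. PKP3, at 0.14, was at -0.46 without doublet removal and -0.34 at resolution 0.4, and from -0.0925 to 0.329 with 1 calf left out. DSG2 was at 0.047 without doublet removal. The cause was not tested. Epithelial cells held 2.07 members each when thinned to 2000 UMIs, 1.36 at 1000, 3.96 unthinned and 1.99 to 2.11 with 1 calf left out. Of 609 member values under other settings, 573 kept their direction and their side of the threshold. Depth limits PKP3 and DSC1, and calf 1 has 10 immune cells and 22 fibroblasts.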

Other observations

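PKP2, the plakophilin best known from the heart, was found in 1 cluster of immune cells, which was chosen after its values were seen. These cells carried BOLA-DRA, TYROBP and FCER1A. In calf 3, 26 of its 462 cells had a PKP2 UMI (5.63%, exact 95% interval 3.71% to 8.14%, counting error only), against 0 of 44 cells in calf 2 (upper bound 8.04%) and 0 of 7 in calf 1, so too few cells of calves 1 and 2 were captured to tell them from calf 3. E-cadherin (CDH1), the cadherin of adherens junctions, was found in 121 of the same 462 cells (26.2%, 22.2% to 30.5%) and in 11 of the 44 cells of calf 2 (25.0%, 13.2% to 40.3%). In the immune cluster with CD3E and CTSW, 1 of 264 cells of calf 3 (0.379%) and 2 of 31 of calf 2 (6.45%) had a CDH1 UMI, and 0 of either had one of PKP2, at a median of 2581 UMIs per cell against 6173 in the former cluster in calf 3. UMIs of the epithelial keratin KRT15, which immune cells should lack, were found in 81.4% of the former and 70.5% of the latter cells of calf 3 (3.15 and 4.37 UMIs per 10000), where CDH1 stood at 0.720 and 0.0123.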
